A study of Mus musculus with 15 samples.

Results

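The RAS-RAF-MEK-ERK cascade genes followed here were Hras, Nras, Araf, Braf, Map2k1, Map2k2 and Mapk3. They were chosen by name as core members of the cascade, since the study pairs a glutamine (Gln) antagonist with trametinib, an inhibitor of MEK. All 7 were present among the 55291 genes of each table, and all 7 passed the filter on low values in every comparison. The RNA came from HY19636, a mouse pancreatic ductal adenocarcinoma (PDAC) line isolated from 1 tumor of a genetically engineered C57BL/6 mouse in which Ptf1a, a gene of pancreatic progenitor and acinar cells, drove Cre. All samples shared 1 label genotype, which includes mutant p53. In culture the cells were grown in DMEM with 10% serum. They served as controls (CNT), were treated with DON at 25 µM for 24 h, or were kept without Gln for 24 h. The label CNT does not say whether the controls were given a vehicle. In mice, HY19636 cells were placed in the pancreas of female B6J mice of 8 to 10 weeks, which kept their immune system. These mice were given vehicle (VEH) or DRP-104, which the body converts to DON, at a daily dose of 3 mg per kg in 2 cycles (5 days of dosing, then 2 of rest), and the tumors were taken on day 21 after transplantation. Each of the 5 groups held 3 bulk RNA sequencing libraries, the tumors holding host cells beside tumor cells, and all groups derive from the same line.

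The cascade passes growth signals from receptors at the membrane to the nucleus. RAS proteins are small GTPases that, when loaded with GTP, recruit RAF kinases to the membrane. RAF kinases phosphorylate the MEK kinases, which phosphorylate ERK, and ERK acts on transcription factors and on further kinases. PDAC is known for depending on this cascade because most of these tumors carry an activated RAS gene. Cascade output is set mainly by phosphorylation and GTP loading, which mRNA levels do not measure.

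Of the 7 genes, 6 had a promoter in the RefSeq table (GRCm38.p6), covering 250 bases before to 50 after the start of a RefSeq transcript, and Mapk3 had none there. For Araf this start lies inside the gene as the deposited FPKM table places it, so its window is not the upstream end of that gene. Shown are Braf, whose mRNA rose in both culture treatments, and the MEK genes Map2k1 and Map2k2, whose mRNA fell in both. Each runs 5′ to 3′ on the strand of its gene, and capitals mark an ETS core (CCGGAA), a CRE core (TGACG) or a CCAAT box on either strand. The positions are chr6:39725414-39725713 (-) for Braf, chr9:64253556-64253855 (-) for Map2k1 and chr10:81105665-81105964 (+) for Map2k2.
Braf: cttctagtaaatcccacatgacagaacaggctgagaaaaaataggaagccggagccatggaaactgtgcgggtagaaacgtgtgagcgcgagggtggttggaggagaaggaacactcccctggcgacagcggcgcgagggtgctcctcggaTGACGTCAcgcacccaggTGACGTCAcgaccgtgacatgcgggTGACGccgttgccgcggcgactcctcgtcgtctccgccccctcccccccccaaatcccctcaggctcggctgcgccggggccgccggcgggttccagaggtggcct
Map2k1: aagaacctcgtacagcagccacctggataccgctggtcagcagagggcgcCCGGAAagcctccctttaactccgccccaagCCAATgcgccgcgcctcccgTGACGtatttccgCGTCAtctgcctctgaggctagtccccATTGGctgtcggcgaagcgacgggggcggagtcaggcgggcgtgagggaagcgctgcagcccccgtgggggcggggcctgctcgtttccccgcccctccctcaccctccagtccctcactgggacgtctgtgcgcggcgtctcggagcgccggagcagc
Map2k2: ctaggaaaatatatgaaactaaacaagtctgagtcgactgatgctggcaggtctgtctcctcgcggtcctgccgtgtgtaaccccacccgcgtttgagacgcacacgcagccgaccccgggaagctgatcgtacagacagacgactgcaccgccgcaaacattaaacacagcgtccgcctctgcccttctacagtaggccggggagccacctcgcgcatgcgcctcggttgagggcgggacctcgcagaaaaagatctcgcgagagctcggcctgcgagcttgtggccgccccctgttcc

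The Braf promoter held 5 matches to the CRE core, the letters recognised by CREB and ATF factors. They lay between 99 and 56 bases before the start, and 4 of them formed 2 full palindromes (TGACGTCA), which start 99 and 81 bases before it. A full palindrome occurred in 1.79% of the 32851 promoters of the table, and 2 or more in 0.0396%; this longer motif was searched after the shorter one had been seen. Hras and Map2k1, whose mRNA fell, held 2 CRE cores each, against 20.8% of all promoters with at least 1. Nras, Araf and Map2k2 held none. An ETS core, the motif of a factor family that ERK phosphorylates, was found in Hras, Araf and Map2k1, and in 14.9% of all promoters. A CCAAT box occurred once in Hras, 3 times in Araf and 2 times in Map2k1, and in 37.4% of all promoters. The GC box (GGGCGG), the motif of SP factors, occurred in every promoter of the 6 but that of Araf, against 35.7% of all. The E-box CACGTG was matched once, in Nras, and in 7.15% of all promoters. The C/EBP-ATF motif TGATGNAA was matched in none of the 6 and in 3.97% of all. The 6 promoters held 14 to 34 CpG dinucleotides, where the median of all promoters was 7. The motif shares above are over all promoters and were not matched for CpG content. The CRE core lies inside the full palindrome, and GC boxes were left in lower case. A match describes these letters only.

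The members lay on chromosomes 3, 6, 7, 9, 10 and X, with Hras and Mapk3 both on 7 (coordinates of the deposited FPKM table, with the same start and end as GENCODE M21, GRCm38, for 5 of the 7, all but Nras and Map2k2). Hras was at chr7:141189105-141194005 (-), Nras at chr3:103058339-103067914 (+) and Araf at chrX:20797814-20860519 (+). Braf was at chr6:39603237-39725463 (-), Map2k1 at chr9:64185770-64253631 (-), Map2k2 at chr10:81105915-81124697 (+) and Mapk3 at chr7:126759601-126765819 (+). Exons of Braf share 146 bases with those of Ndufb2 on the opposite strand, and exons of Araf share 9 bases with those of Syn1. Reads from such stretches cannot be assigned without strand.

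The cultured cells had 25.2 to 48.2 M reads and the tumors 16.3 to 20.7 M. A list of 8 epithelial markers gave summed normalized counts of 401477 to 512777 in control cells, 122368 to 129829 with DON, 163473 to 179079 without Gln and 128491 to 193743 in tumors, and the part of this difference in the values below was not tested. In the cells, all 6 islet markers were at 0. Fibroblast markers (8 genes) summed to 471 to 630 in controls, 121 to 157 with DON and 1076 to 1125 without Gln, with Col1a2, Dcn and Lum at 0 in all 3 groups. T cell markers (8 genes) summed to 54.5 to 168 over these groups, with 5 at 0 throughout (Cd3d, Cd3e, Cd3g, Cd4 and Cd2). Macrophage markers (8 genes) summed to 2031 to 2762 in controls, 1156 to 1286 with DON and 2260 to 2303 without Gln, with 4 at 0 throughout (Adgre1, C1qb, C1qc and Lyz2). Endothelial markers (6 genes) summed to 39.1 to 207 and acinar markers (8 genes) to 2.11 to 62.0. Control column 3 stood apart from the other control columns, with the lowest Hras, Map2k2 and Mapk3 and the highest Nras and Braf of the 3. Without it 7 of the 7 members were called both with DON and without Gln, where 71.3% and 72.4% of all genes were.

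In control cells the levels per length ran from Mapk3 down to Braf. Levels are given here as reads per kilobase of gene and per M reads, mean ± SD with n = 3. Mapk3, which encodes ERK1, was highest at 136 ± 11.3. The MEK genes followed, Map2k1 (MEK1) at 87.5 ± 5.13 and Map2k2 (MEK2) at 81.4 ± 6.82, and their libraries overlapped. Nras stood at 53.4 ± 7.56, Hras at 28.8 ± 3.70 and Araf at 21.3 ± 1.44, with no overlap between neighbours. Braf was lowest at 1.23 ± 0.28.

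The order changed in both culture treatments, with Nras in rank 1 and Mapk3 in rank 4 of the 7 in each. In DON-treated cells Nras reached 88.9 ± 0.74 and Mapk3 stood at 65.9 ± 4.98, the latter overlapping Map2k1 at 70.0 ± 1.37. In Gln-free cells Nras stood at 67.9 ± 0.51 and Mapk3 at 40.0 ± 4.98, below both MEK genes. Braf remained lowest on this scale, at 2.10 ± 0.28 with DON and 3.22 ± 0.18 without Gln. Tumors kept Mapk3 first, at 164 ± 5.28 with vehicle and 162 ± 31.9 with DRP-104. Map2k1 came second in both tumor groups at 111 ± 20.3 and 109 ± 31.7, and its libraries overlapped those of Mapk3 and Nras with DRP-104. The MEK genes, whose means in cells lay near each other, stood apart in tumors, where Map2k2 was at 52.0 ± 4.40 with vehicle and 49.1 ± 4.64 with DRP-104. Braf was lowest in tumors too, at 2.86 ± 0.30 and 2.84 ± 0.53. Fewer tumor cells and less RNA per cell cannot be told apart in bulk tumors.

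**Figure D1:**
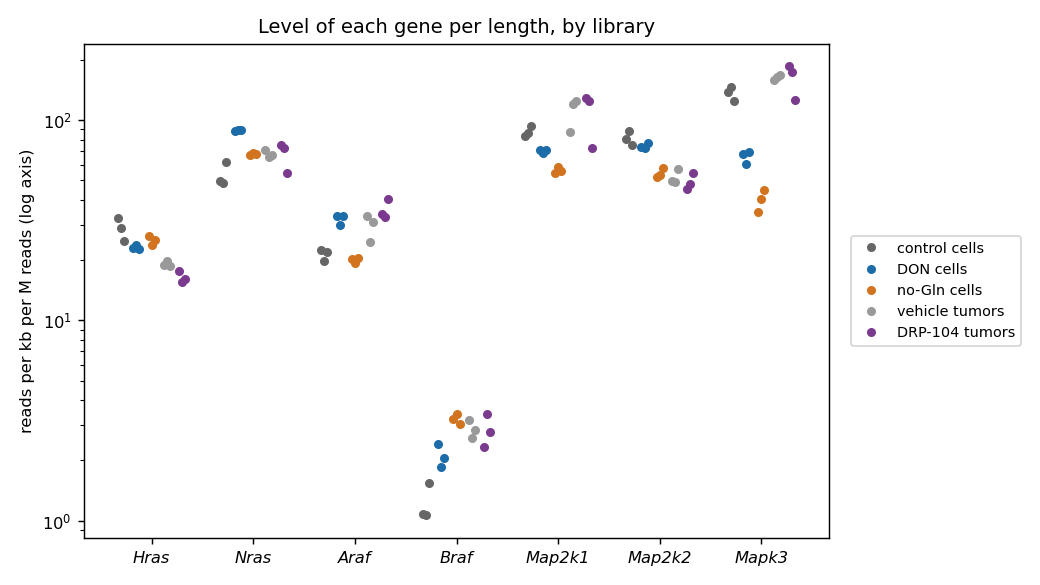
Level of each gene per length in every library, in reads per kilobase per M reads on a log axis, 1 point per library and 3 per group. Mapk3 is the highest gene in control cells and in both tumor groups, Nras the highest in DON-treated and Gln-free cells, and Braf the lowest in every group.

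DON changed all 7 genes, 3 upwards (Nras, Araf, Braf) and 4 downwards (Hras, Map2k1, Map2k2, Mapk3). The question was whether blocking Gln use shifts the mRNA of the cascade itself. Values below are normalized counts, comparable between libraries of one table but not between genes. A gene was called at an adjusted p-value under 0.05 (limma on log2(value + 1), Benjamini-Hochberg over all genes tested). At that rule 68.1% of all 13556 genes tested were called with DON, 33.3% higher and 34.7% lower, and the 3 treated values did not overlap the 3 control values for 71.9%, as for all 7 members. The 7 calls are therefore read against a background in which most genes were called.

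Among the RAS genes, whose products recruit RAF, the 2 members moved in opposite directions with DON. Nras read 11716, 11881 and 11708 in the DON libraries and 7432, 7303 and 8574 in the controls. Every DON library was above every control, and the log2 fold change was 0.60 ± 0.09 (SE, adjusted p = 3.86e-05). Hras read 1954, 2028 and 1911 with DON and 3121, 2781 and 2209 in the controls. The DON libraries lay below all controls, control column 3 being the nearest, and Hras fell by 0.45 on the log2 scale (SE 0.12, adjusted p = 0.00368).

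Both RAF genes rose with DON. Araf, whose product has weak kinase activity of its own, read 2849, 2555 and 2818 against 2187, 1915 and 1949 in controls. The groups did not overlap, with a log2 fold change of 0.44 ± 0.09 (adjusted p = 0.000855). Braf, which encodes the RAF with the highest basal activity, read 703, 538 and 591 against 358, 351 and 471. Its log2 fold change was 0.64 ± 0.15 (adjusted p = 0.00186), and the lowest DON library lay above the highest control. Ndufb2, which shares exon bases with Braf, had a log2 fold change of 0.66 (adjusted p = 0.00868) at a mean of 159 with DON and 100 in controls.

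The MEK and ERK genes fell with DON. Map2k1, 1 of the 2 targets of trametinib, read 5208, 5010 and 5113 against 6909, 7145 and 7100, and fell by 0.46 on the log2 scale (SE 0.08, adjusted p = 0.000159). The spread within each group was narrow, and the groups were far apart. Map2k2, the other target, read 5320, 5272 and 5512 against 6614, 7240 and 5635. Its fall of 0.27 (SE 0.10, adjusted p = 0.0265) was the smallest of the 7, and control column 3 lay just above the DON libraries. The call was lost under quantile normalization, where the log2 fold change was -0.08 (and the median of all genes moved from 0.02 to 0.13), and on leaving out any library but control column 3 (-0.37 without that one). Mapk3 read 3668, 3257 and 3729 against 8457, 8993 and 7011. Its mean in controls was 2.30 times that with DON, a log2 fold change of -1.19 ± 0.10 (adjusted p = 1.95e-07), the largest change among the 7.

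Without Gln, 6 of the 7 genes changed: Nras and Braf rose, and Hras, Map2k1, Map2k2 and Mapk3 fell. The background was 69.4% of 13390 genes called, 34.5% higher and 34.9% lower, with non-overlapping groups for 73.6% of genes and for 6 of the 7 members. The control libraries are the same as in the DON comparison, so the 2 comparisons share their error on that side. Control values differ slightly from those above because each table was scaled by itself.

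Nras read 8740, 8830 and 8706 without Gln and 7004, 6899 and 8269 in controls. The groups did not overlap, the log2 fold change was 0.25 ± 0.09 (adjusted p = 0.0216), and edgeR on recovered reads did not call it (0.21, adjusted p = 0.0588). Hras read 2191, 1982 and 2063 against 2942, 2627 and 2130. The groups overlapped at control column 3, and the log2 fold change was -0.29 ± 0.11 (adjusted p = 0.0343). The Nras call was lost on leaving out any library but control column 3 (0.33 without that one), and the Hras call on leaving out Gln-free library 2 or 3 or control column 1 or 2, with -0.19 without control column 1.

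Braf read 920, 968 and 855 without Gln and 338, 331 and 454 in controls. Its mean was 2.44 times that of controls, a log2 fold change of 1.30 ± 0.14 (adjusted p = 2.55e-06), and the groups lay far apart. Its exon neighbour Ndufb2 had a log2 fold change of -0.15 (adjusted p = 0.546). Araf read 1701, 1616 and 1684 against 2061, 1808 and 1880. The groups did not overlap, but the log2 fold change of -0.20 ± 0.09 missed the threshold (adjusted p = 0.0612), and it was called without control column 2 (-0.24) or 3 (-0.21), under quantile normalization (-0.24) and by edgeR (-0.24).

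MEK and ERK mRNA fell without Gln as well. Map2k1 read 3879, 4154 and 3932 against 6511, 6749 and 6848 in controls, a log2 fold change of -0.75 ± 0.08 (adjusted p = 2.15e-06). Map2k2 read 3694, 3755 and 3998 against 6233, 6838 and 5435, at -0.69 ± 0.09 (adjusted p = 2.75e-05). No Gln-free library reached any control for either gene. Mapk3 read 1847, 2134 and 2334 against 7970, 8495 and 6761. Its mean in controls was 3.68 times that without Gln, a log2 fold change of -1.88 ± 0.11 (adjusted p = 1.27e-08). These 3 calls held in all 15 alternative fits, as did that of Braf.

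**Figure D2:**
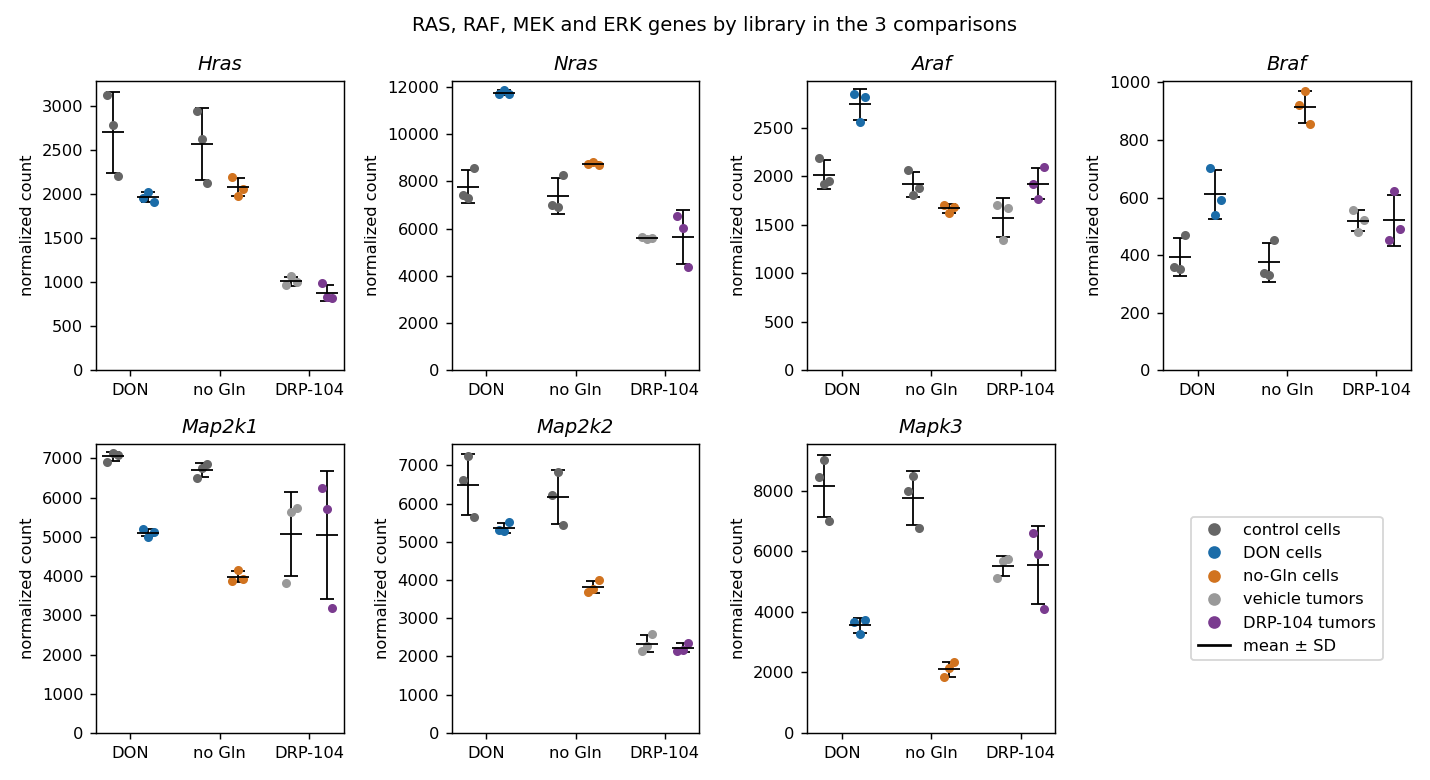
Normalized counts of each gene in every library for the DON, no-Gln and DRP-104 comparisons, with points for libraries and bars for mean ± SD (n = 3), each axis starting at 0. Mapk3 separates the treated cells from controls most widely, while the tumor groups overlap for every gene but Araf.

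DON and Gln withdrawal were then compared directly, over the 9 culture libraries on 1 scale. Of the 7 genes, 6 differed, 5 higher with DON and 1 lower, against a background of 63.3% of 13514 genes, 31.0% higher and 32.3% lower. Araf differed by 0.67 ± 0.08 (log2, SE, adjusted p = 3.17e-06) and Mapk3 by 0.72 ± 0.10 (adjusted p = 1.99e-05), both higher with DON. Map2k2 (0.45, adjusted p = 0.000271), Nras (0.39, adjusted p = 0.000376) and Map2k1 (0.32, adjusted p = 0.000747) were also higher with DON. Braf was lower with DON than without Gln, by -0.63 ± 0.13 (adjusted p = 0.000781). Hras had a difference of -0.12 with a 95% interval of -0.34 to 0.10 (adjusted p = 0.318). The 6 calls held in each of 19 alternative fits.

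Within 1 library, the ratio of 2 paralogs does not depend on scaling between libraries, although it depends on gene length. The log2 ratio of Hras to Nras was -1.53 ± 0.37 (SD, n = 3) in control cells, -2.58 ± 0.03 with DON and -2.08 ± 0.08 without Gln. Neither treated group overlapped the controls, although Gln-free library 1 (-1.995) lay close to control column 3 (-1.956). Each of these comparisons gave p = 0.1 in a two-sided exact permutation test, the smallest that 3 against 3 allows, and so could not pass 0.05. The Araf to Braf ratio was 2.37 ± 0.29 in controls and 2.17 ± 0.13 with DON, overlapping (exact p = 0.4), and 0.87 ± 0.12 without Gln, not overlapping (exact p = 0.1). The Map2k1 to Map2k2 ratio was 0.13 ± 0.18 in controls, -0.07 ± 0.04 with DON (exact p = 0.1) and 0.06 ± 0.08 without Gln (exact p = 0.8). Among the culture ratios, the largest difference from controls was that of the RAF genes without Gln, at -1.50. Between DON and Gln-free cells the ratios differed by -0.51 for the RAS genes, 1.30 for the RAF genes and -0.13 for the MEK genes, each without overlap (exact p = 0.1). In tumors the RAS ratio was -2.66 ± 0.24 with DRP-104 and -2.48 ± 0.09 with vehicle (exact p = 0.3), and the RAF ratio 1.89 ± 0.34 and 1.59 ± 0.10 (exact p = 0.3). The MEK ratio was 1.12 ± 0.60 and 1.10 ± 0.24 (exact p = 1), and all 3 tumor ratios overlapped. The 12 permutation tests form 1 family, and the smallest adjusted p was 0.171.

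**Figure D3:**
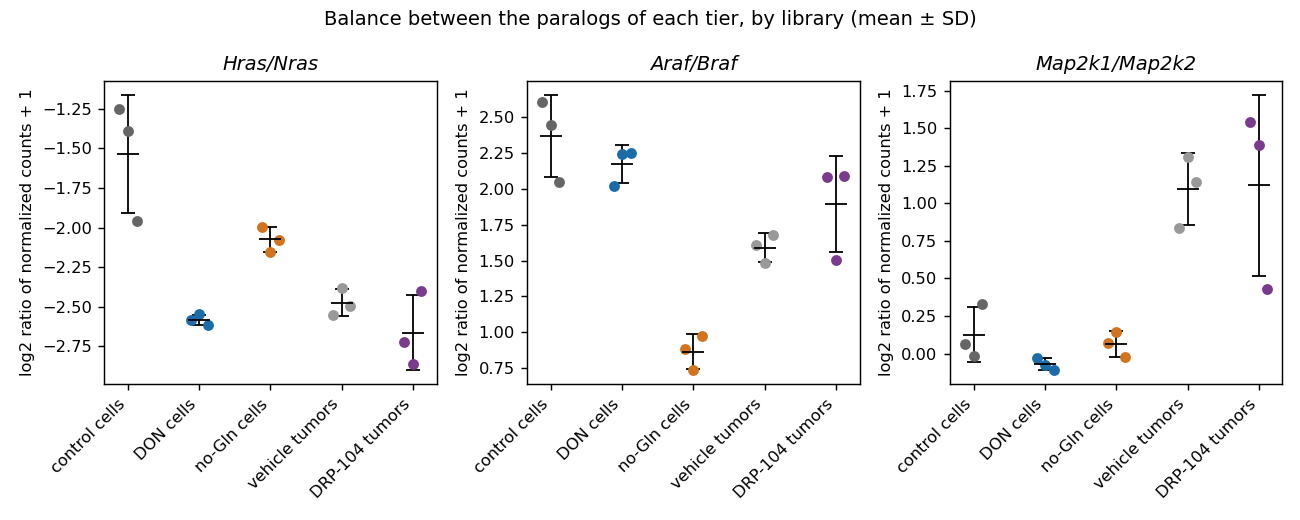
Log2 ratio of normalized counts (+ 1) between the paralogs of each tier, 1 point per library with mean ± SD (n = 3), in the 5 groups. Hras to Nras is lower in both treated culture groups than in controls, Araf to Braf is low in Gln-free cells, and tumor groups overlap in all 3 ratios.

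In tumors, none of the 7 genes was called between DRP-104 and vehicle. No gene of the 15454 tested was called by limma (0%). An unadjusted limma p under 0.05 was found for 775, near the share that this cutoff passes when no gene changes. By edgeR 0 were called and by DESeq2 59, none of them a member or a gene of the lists described further on. In counts simulated for the tumors, limma found 76 of 200 genes changed by a known factor (38%). A gene that was not called may thus still have changed. The 3 treated and 3 vehicle values did not overlap for 1 member, Araf, against 10.6% of all genes. Araf read 1915, 1766 and 2090 with DRP-104 and 1701, 1342 and 1677 with vehicle, a log2 fold change of 0.29 with a 95% interval of -0.05 to 0.64 (adjusted p = 0.916). In the deposited FPKM table the difference had the opposite sign, at -0.15, with group means of 33.4 and 37.2 FPKM, and its groups overlapped.

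Braf read 451, 622 and 490 in DRP-104 tumors and 556, 481 and 524 in vehicle tumors, a log2 fold change of -0.01 with an interval of -0.42 to 0.41. Hras read 987, 828 and 825 against 965, 1068 and 997 (-0.20, interval -0.53 to 0.13), and Map2k2 read 2146, 2179 and 2365 against 2141, 2277 and 2597 (-0.07, interval -0.37 to 0.24). In each of these 3 genes the groups overlapped.

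The other 3 genes shared a low value in DRP-104 tumor 3. Nras read 6540, 6038 and 4364 with DRP-104 and 5661, 5567 and 5620 with vehicle. Mapk3 read 6603, 5908 and 4095 against 5116, 5670 and 5743. Map2k1 read 6246, 5715 and 3191 against 3831, 5643 and 5733. DRP-104 tumor 3 was the lowest of all 6 for each of them, and for Map2k1 vehicle tumor 1 was low as well. Their log2 fold changes were -0.01 (interval -0.42 to 0.39), -0.02 (-0.47 to 0.43) and -0.04 (-0.68 to 0.60), and without DRP-104 tumor 3 they were 0.16, 0.18 and 0.26. That tumor had a summed T cell marker level (8 genes) of 1344, against 47.3 to 100 in the other 5 tumors, and an epithelial sum of 193743, the highest of the 6. Fibroblast markers (8 genes) summed to 18527 to 32488 with DRP-104 and 39156 to 82999 with vehicle, without overlap. Endothelial markers (6 genes) summed to 1324 to 2071 with DRP-104 and 2126 to 2576 with vehicle, also without overlap. The epithelial, macrophage, T cell, acinar and islet sums overlapped between the tumor groups. By staining of tumor sections, the paper reported no significant change in cancer-associated fibroblasts with DRP-104. The part of these cell types in the values was not tested.

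The deposited FPKM values give the tumor levels per length from the authors' own table, whose columns did not follow the normalized counts library by library. Mapk3 stood at 150 ± 2.19 FPKM (SD, n = 3) with DRP-104 and 149 ± 8.39 with vehicle, and Map2k1 at 121 ± 21.9 and 99.8 ± 20.2. Map2k2 stood at 65.2 ± 20.1 and 52.0 ± 3.01, its highest DRP-104 library at 88.4, and Nras at 54.1 ± 13.4 and 67.1 ± 4.60, its lowest at 38.6. The wide spreads of Map2k2 and Nras with DRP-104 each came from 1 library. Hras stood at 19.8 ± 2.82 and 17.5 ± 0.80 and Braf at 3.03 ± 0.89 and 3.33 ± 0.30. All 7 genes overlapped between the groups, and the share of all genes with such overlap was not computed for FPKM. None of the 7 was called by limma, nor was any of the 14199 genes tested.

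**Figure D4:**
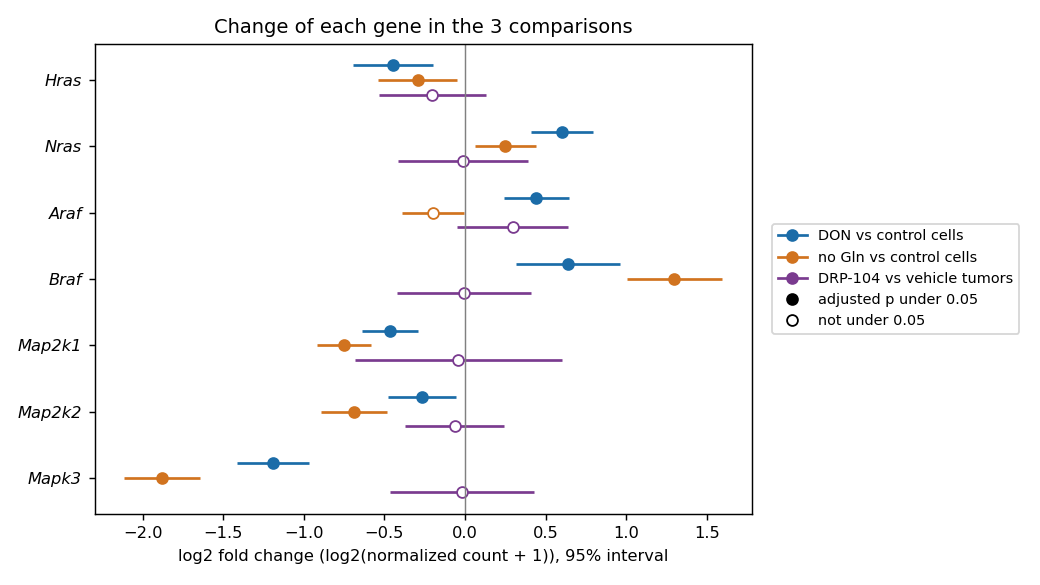
Log2 fold change of each gene with its 95% interval in the DON, no-Gln and DRP-104 comparisons, filled where the adjusted p was under 0.05. Mapk3 lies farthest left in both culture comparisons, Braf farthest right without Gln, and all 7 tumor intervals include 0.

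The difference between the tumor effect and a culture effect was tested as an interaction. Against DON, Mapk3 differed by 1.17 ± 0.23 (log2, SE, adjusted p = 0.00146) and Nras by -0.62 ± 0.19 (adjusted p = 0.0255), which makes 2 of 7 genes, where 33.1% of 15070 genes were called. The Nras call was lost on leaving out any DON library or control column 1 or 2, and Braf (-0.65, adjusted p = 0.0569) was called without control column 3 or DRP-104 tumor 2 (both -0.78) and, at an adjusted p of 0.0499, with a mean of at least 50 (-0.65). Map2k1 (0.42, adjusted p = 0.306) was called without DRP-104 tumor 3 (0.73). Against Gln withdrawal, 4 of 7 were called, where 36.7% of 14979 genes were. These were Mapk3 (1.86, adjusted p = 5.91e-05), Braf (-1.31, adjusted p = 0.000746), Map2k2 (0.62, adjusted p = 0.00794) and Araf (0.49, adjusted p = 0.0319). The Araf call was lost in 8 of 20 alternative fits. Among these were the fits without DRP-104 tumor 3 (0.43), vehicle tumor 2 (0.38), control column 1 (0.44) or any Gln-free library. Map2k1 had a difference of 0.71 (adjusted p = 0.0836), and was called when DRP-104 tumor 3 was left out (1.01), under quantile normalization (0.74) and with array weights (0.71). Dose, duration, host and cell mixture differ between tumors and cells and cannot be told apart.

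Genes around the cascade, in 6 lists of 82 distinct genes, moved both ways in culture and none was called in tumors. With DON, 17 of 78 tested rose and 36 fell, with a median log2 fold change of -0.23 against 0.02 for all genes. The 53 called make 67.9%, near the 68.1% of all genes. Without Gln, 21 rose and 34 fell, with a median of -0.12 against 0.01. The 55 called make 70.5%, near the 69.4% of all genes. Each list below is to be read against these shares, which with DON divide into 33.3% higher and 34.7% lower and without Gln into 34.5% higher and 34.9% lower, and no list is singled out by its count. In tumors none of 81 was called, and the median was -0.07 against -0.01.

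Upstream of RAS, exchange factors load GTP and GTPase-activating proteins (GAPs) end the signal. With DON 2 of 14 such genes and adaptors rose and 7 fell (median -0.24), and without Gln 6 rose and 4 fell (median 0.26), where 68.1% and 69.4% of all genes were called. Sos2, an exchange factor, rose in both, by 1.08 ± 0.11 with DON and 1.57 ± 0.11 without Gln on the log2 scale. Rasgrp3, another exchange factor, had log2 fold changes of -2.87 ± 0.16 and -3.99 ± 0.20. The GAP gene Dab2ip changed by -1.29 with DON and -0.62 without Gln, and Rasa1, also a GAP, by 1.35 without Gln (0.22 with DON, not called).

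Of 9 RAS relatives, 4 rose and 2 fell with DON, and 6 rose and 2 fell without Gln (medians 0.18 and 0.63), beside the background of 68.1% and 69.4%. Rras2, a close relative that can signal through the same effectors, rose by 0.51 and 1.19, and Rap1b, a relative known in adhesion, rose by 0.88 without Gln (0.11 with DON, not called). Rras changed by -0.79 with DON and -0.57 without Gln, and Ralb by -0.84 with DON (-0.08 without Gln, not called). Of 9 genes for the lipid processing that carries RAS to membranes, 2 rose and 3 fell with DON, and 1 rose and 4 fell without Gln, with the same background. Fntb, the beta subunit of farnesyltransferase, changed by -1.45 ± 0.14 with DON and -0.31 without Gln. Golga7, partner of the enzyme that palmitoylates Hras and Nras, rose by 0.41 and 0.83. The gene of that enzyme, Zdhhc9, changed by -0.85 with DON and by -0.01 without Gln (not called).

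Of 22 scaffolds and regulators tested, 4 rose and 12 fell with DON and 6 rose and 13 fell without Gln (medians -0.34 and -0.32). Of all genes 68.1% and 69.4% were called, with 34.7% and 34.9% lower. Arrb1, a beta-arrestin that can hold cascade kinases together, had the largest change of all list genes with DON, from a mean of 1349 in controls to 33.0 (-5.33 ± 0.21), and changed by -2.47 ± 0.14 without Gln. Lamtor3, a scaffold for MEK1 and ERK1 on late endosomes, rose by 0.99 with DON and 1.25 without Gln. Ppp1cb, a catalytic subunit of the phosphatase that releases RAF from inhibition, rose by 0.92 and 1.66. Of its other catalytic subunits, Ppp1ca changed by -0.73 with DON and -0.99 without Gln, both called. Ppp1cc changed by 0.16 with DON (not called) and 0.24 without Gln. Ksr1, a scaffold that binds RAF and MEK, changed by -2.08 with DON and -1.36 without Gln.

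Of 7 kinases that ERK phosphorylates, 2 rose and 3 fell with DON, and 0 rose and 5 fell without Gln (medians -0.24 and -0.63). The background was 68.1% and 69.4% of all genes called, with 34.7% and 34.9% lower. Rps6ka1 (RSK1) changed by -2.85 ± 0.12 with DON and -2.84 ± 0.10 without Gln, from means of 3661 and 3477 in controls to 509 and 484. Rps6ka2 (RSK3) rose by 1.60 ± 0.13 with DON, and was higher with DON than without Gln by 1.41 (adjusted p = 9.81e-08). Mknk2, which phosphorylates the translation factor eIF4E, changed by -1.14 with DON and -1.47 without Gln. Of 18 genes of other MAP kinase modules, 4 rose and 9 fell with DON and 2 rose and 7 fell without Gln, with the same background. Map3k5 (ASK1), a stress-activated kinase, changed by -1.44 and -1.06.

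**Figure D5:**
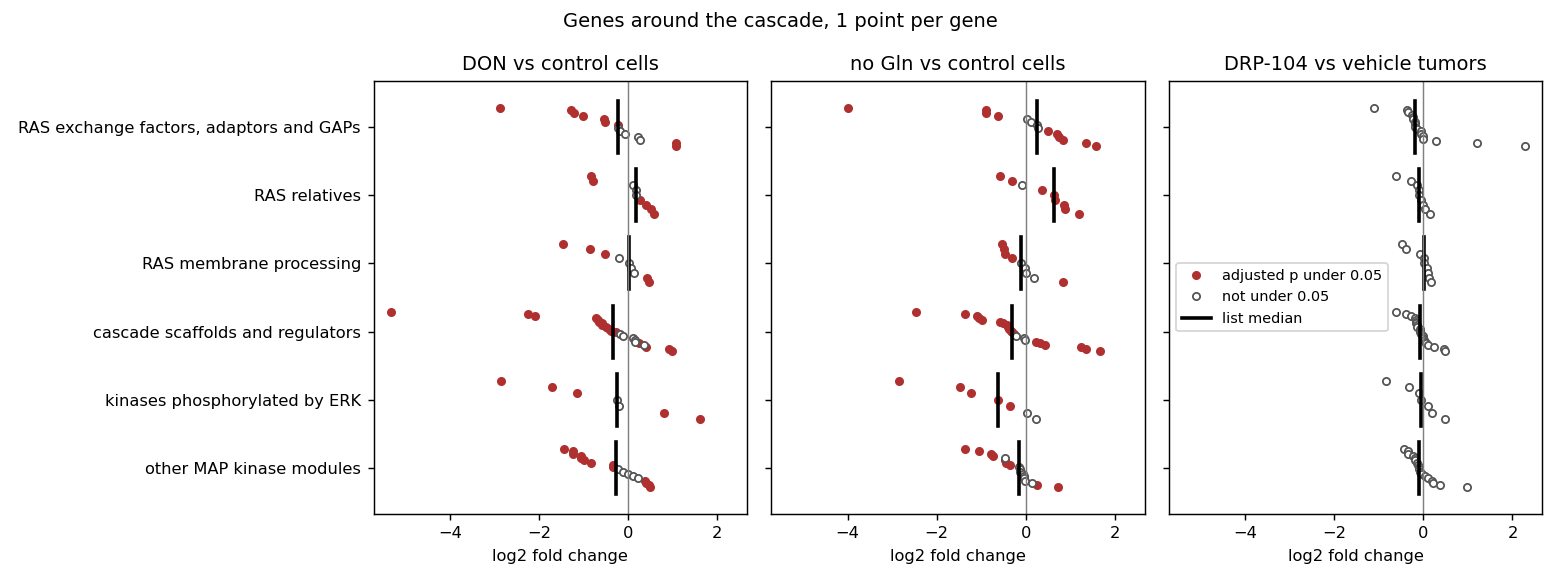
Log2 fold change of each gene of the 6 lists in the DON, no-Gln and DRP-104 comparisons, filled where the adjusted p was under 0.05, with a bar at the list median. Both culture comparisons hold called genes on either side of 0 in most lists, and no point is filled in the tumors.

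The genes whose pattern was most like that of each member were sought over the 9 culture libraries among 10430 other genes with a mean of at least 100. The values share 3 libraries per group, so the correlation mostly follows the group means. For Mapk3 the closest were Jup, a junction protein gene (r = 0.998), and Slc4a11 (r = 0.998). For Map2k1 they were Amot (r = 0.999) and Slc25a13 (r = 0.997), and for Map2k2 Fam129b (r = 0.998) and Dffa (r = 0.993). For Braf they were A630089N07Rik (r = 0.993) and Thoc2l (r = 0.993), and for Nras Csnk2a1 (r = 0.993) and Smim13 (r = 0.992). For Araf they were Ppp2r3d (r = 0.984) and Kxd1 (r = 0.982), and for Hras Rae1 (r = 0.976) and Samm50 (r = 0.971). Among the members, Map2k1 and Mapk3 were most alike (r = 0.984), and Braf ran opposite to Map2k2 (r = -0.966).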

How the data were processed

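RNA was measured by bulk RNA sequencing in 15 libraries. The submitters' processing notes name HISAT2, STAR 2.5, CASAVA, DESeq2 and GRCm39, and the methods name HISAT2 and DESeq2; strand and counting settings are not given in the sources used here. The deposited tables hold normalized counts (a signal made by the authors from gene counts divided by a size factor per library, 3 separate tables) and, for tumors, deposited FPKM values by the authors. All values up to 3000 reads (100%) lay within 0.0051 normalized counts of a whole multiple of the step of 1 read, so reads could be recovered for count tests. On these reads edgeR called 9191 genes with DON, 9218 without Gln and 0 in tumors. Among 1 to 20 reads, even numbers took 69.6 to 72.7% in cells and 41.9 to 46.5% in tumors, so a read may not be the same unit in both. The FPKM columns of tumors did not follow the count columns of the same name (highest correlation of their log2 deviations over genes 0.0863). Over any pair of columns the highest correlation was 0.4576, so no FPKM column was tied to a counted tumor. The FPKM columns were used by group, which was taken from the column names and not checked otherwise. Coordinates of the FPKM table matched GENCODE M21 (GRCm38) exactly for 72.25% of 34490 genes.

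Each comparison was fitted with limma 3.58.1 in R 4.3.3 (trend, log2(value + 1), mean of at least 10, Benjamini-Hochberg over all genes, 0.05). The direct comparison of DON with Gln withdrawal used recovered reads scaled over 9 libraries, and tumor against culture effects as interactions. Paralog ratios used two-sided exact permutation tests (scipy 1.17.1). Scripts were tested on simulated data. Alternatives were edgeR 4.0.16, DESeq2 1.42.0, quantile normalization, other pseudocounts, filters and thresholds, array weights, leaving out each library, and, for tumors, FPKM. Named were all 7 members, the 2 genes most alike to each member, and a part of the list genes called with the 2 largest rises or falls of their list. Other list genes that met this rule were left out, and the catalytic subunits beside Ppp1cb were named outside it. Members and lists were chosen with earlier results of these data known. Further genes of the cascade are not reported here. Control columns in both culture tables carry the names of the vehicle tumors; they were taken as control cells by table, without a sample number, and are numbered by column name. Nothing says that libraries of cultures came from separate experiments, so p-values measure the spread between these libraries. Reads are not independent molecules, and depth limits precision through counting error only.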

Additional observations from a re-analysis of the deposited data

Results flagged for a closer look

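Several genes differed between the effect of DRP-104 in tumors and the effect of a treatment in culture by the interaction test (limma). Mapk3 differed from its DON effect by 1.17 and from its no-Gln effect by 1.86 (log2). Nras differed from its DON effect by -0.62. Against Gln withdrawal, Braf differed by -1.31, Map2k2 by 0.62 and Araf by 0.49. Of all genes, 33.1% were called against DON and 36.7% against Gln withdrawal. In 20 alternative fits each, the Nras call was lost in 6 and the Araf call in 8. Tumors and cells differ in agent, duration and cell mixture, and these cannot be told apart here.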

How the results depend on the processing

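With DON, 6 or 7 members were called under every alternative, without Gln 4 to 7, between DON and Gln-free cells 6, and in tumors 0. In the main fits, 68.1%, 69.4%, 63.3% and 0% of all genes were called in these comparisons. Against DON, the tumor effect differed for 1 member at a threshold of 0.01, and for 1 to 3 when 1 library was left out. Against Gln withdrawal 3 to 5 members differed. In the main fits of these differences, 33.1% of all genes were called against DON and 36.7% against Gln withdrawal.

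The tumor log2 fold changes, none of them called, changed sign under several alternatives, and the cause was not tested. In the FPKM table they were 0.16 for Hras, -0.15 for Araf, 0.28 for Map2k1, 0.28 for Map2k2 and 0.010 for Mapk3. DESeq2 gave 0.0078 for Nras, 0.0023 for Braf and 0.0067 for Mapk3. Quantile normalization gave 0.026 for Nras, 0.0070 for Map2k1 and 0.024 for Mapk3. Leaving out 1 library gave -0.13 to 0.16 for Nras, -0.14 to 0.089 for Braf, -0.23 to 0.26 for Map2k1, -0.13 to 0.013 for Map2k2 and -0.16 to 0.18 for Mapk3. The difference of Hras between the tumor and no-Gln effects, not called, ranged from -0.015 to 0.22 in the same way.

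Fits with a replicate block called 0 members in tumors and 6 between DON and Gln-free cells, as without it. In cells the block fit left out the control libraries, and it called 9237 genes against 8549 in the main fit. Deviations of same-numbered libraries from their group means correlated at -0.46 to 0.05 in tumors and -0.05 to 0.26 in cells. With 3 libraries per group, these values cannot settle whether the numbers pair the samples. No replicate block was fitted for the other comparisons: their control columns bear numbers, but under the names of the vehicle tumors, and these numbers could not be tied to the numbered control samples. In tumors, the spread between libraries limits what could be detected.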
